A study of Mus musculus with 24 samples.

Results

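The angiopoietins and angiopoietin-like proteins are secreted ligands, and 6 of their genes were followed here: Angpt1, Angpt2, Angptl2, Angptl4, Angptl6 and Angptl7. They are 6 of the 47480 genes of the raw count table and were chosen by name, with higher Angptl7 and lower Angptl4 under Dexa as the pattern of interest. All 6 were among the 14772 genes with enough counts to be tested. Because values with and without Dexa chose the genes, their Dexa contrasts are given as a description with no test. The contrasts of siCop1 and KL001, and the differences between contrasts, were tested.

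The cells were wild type mouse embryonic fibroblasts, which are connective tissue cells grown from embryos. There were 24 libraries in 8 groups of 3, in which siCTRL or siCop1 was crossed with DMSO or KL001, each without and with Dexa. siCTRL is taken as a control siRNA and siCop1 as one against Cop1, the substrate receptor of a ubiquitin ligase. DMSO is the solvent, KL001 is a compound known to stabilise cryptochromes, which are clock repressors, and "Dexa" is the submitters' own abbreviation. Every group had an siRNA and DMSO or KL001, so no group was untreated. The sources used here give no doses, times or siRNA sequences and do not say whether replicates were separate cultures, so p-values measure the spread between these libraries, which may be technical.

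Libraries held 21409988 to 27875023 counts. Cop1, listed as Rfwd2, was at 25.0 to 29.7 CPM (reads of the gene scaled for the depth of the library) in the 12 siCTRL libraries and at 4.33 to 5.79 CPM in the 12 siCop1 libraries, with no overlap. Of the fibroblast markers, Col1a1 ran from 14700 to 23500 CPM, while Dcn (1.55 to 4.58 CPM) and Lum (0.232 to 1.67 CPM) were low. Libraries also differed in the summed levels of marker lists of other cell types, which need not mean that such cells were present. The summed level of 8 heart muscle markers was 6.5 to 106 CPM over the siCTRL libraries and 2.61 to 5.09 CPM over the siCop1 libraries, and Myl7 was at or near 0 throughout. The summed level of 8 mural (vessel wall) cell markers, most of it Acta2 and Tagln, was 3660 to 4170 CPM with siCTRL and 2330 to 2700 CPM with siCop1, with Kcnj8 at 0 in every siCop1 library. The sum of 6 macrophage markers was 2.59 to 7.48 CPM with siCTRL and 4.43 to 15.2 CPM with siCop1. Cd68 rose with siCop1 in all 4 settings, by 0.46 to 0.61 on the log2 scale, and Lyz2 rose in both settings with Dexa, by 2.08 in DMSO and 3.24 in KL001, while Adgre1 was at 0 to 0.132 CPM (edgeR, as below). The sum of 10 endothelial markers, most of it Erg, was 11.7 to 13.8 CPM in siCTRL DMSO without Dexa, 9.27 to 9.41 CPM in siCop1 DMSO without Dexa and 3.58 to 4.3 CPM in siCop1 KL001 with Dexa. The sum of 10 fibroblast markers, most of it Col1a1 and Col1a2, was lower with siCop1 and with KL001. It was 48100 to 50800 CPM in siCTRL DMSO without Dexa and 35100 to 37000 CPM in siCop1 KL001 with Dexa. Its members did not all move alike. With siCop1 in KL001 without Dexa, 5 of the 10 were lower and 2 higher, where 18.2% and 14.5% of all genes were. With siCop1 in DMSO, 2 were lower and 0 higher without Dexa, where 16.6% and 12.8% of all genes were. The same counts held in DMSO with Dexa, where 16.7% and 14.4% of all genes were. In KL001 with Dexa, 2 were lower and 2 higher with siCop1, where 30.1% of all genes changed either way. The sum of 8 epithelial markers was highest, at 17.3 to 73.9 CPM, in siCop1 DMSO with Dexa, against 10.1 to 16.4 CPM in siCTRL DMSO without Dexa. The part of these marker lists in the results below was not tested. In such bulk RNA, fewer cells of a type and less RNA per cell cannot be told apart.

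Angpt1 and Angpt2 proteins bind the receptor tyrosine kinase Tie2, encoded by Tek, on endothelial cells. Angpt1, made by the cells around vessels, activates it and keeps vessels quiescent, and Angpt2 can block that activation. The angiopoietin-like proteins share the coiled-coil and, in most members, the fibrinogen-like domain, but most do not bind Tie2. Angptl4 inhibits lipoprotein lipase and is a classical target of PPARs, hypoxia signalling and, in fat and liver, of glucocorticoids. Angptl2 acts through integrins and is linked to inflammation, Angptl6 is known for effects on energy balance, and Angptl7 is known from the cornea and from the trabecular meshwork of the eye, where glucocorticoids raise it.

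Per length, Angptl2 was the most abundant of the 6, with a mean over the 24 libraries of 59.2 CPM per kilobase of exon. Angptl7 followed at 31.0, and then Angpt1 at 13.1, Angptl4 at 11.7, Angptl6 at 9.53 and Angpt2 at 1.39 CPM per kilobase. The place of Angptl7 in that order depended on the group. It was at 2.58 ± 0.118 CPM per kilobase (SD, n = 3) in siCTRL DMSO without Dexa, below Angpt1, Angptl4 and Angptl6. It was at 74.6 ± 3.42 CPM per kilobase (SD, n = 3) in siCop1 DMSO with Dexa, above Angptl2 at 55.7 ± 0.594 (SD, n = 3). Angpt1 at 12.4 ± 0.737, Angptl6 at 11.9 ± 0.271 and Angptl4 at 11.1 ± 0.248 CPM per kilobase (SD, n = 3 each) lay close together in siCTRL DMSO without Dexa, where the libraries of Angpt1 and Angptl6 overlapped and those of Angptl4 lay just below. Of the other family members, Angpt4 reached 3.99 to 14.1 CPM, while Angptl1 and Angptl8 had at most 1 read in any library.

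**Figure D1:**
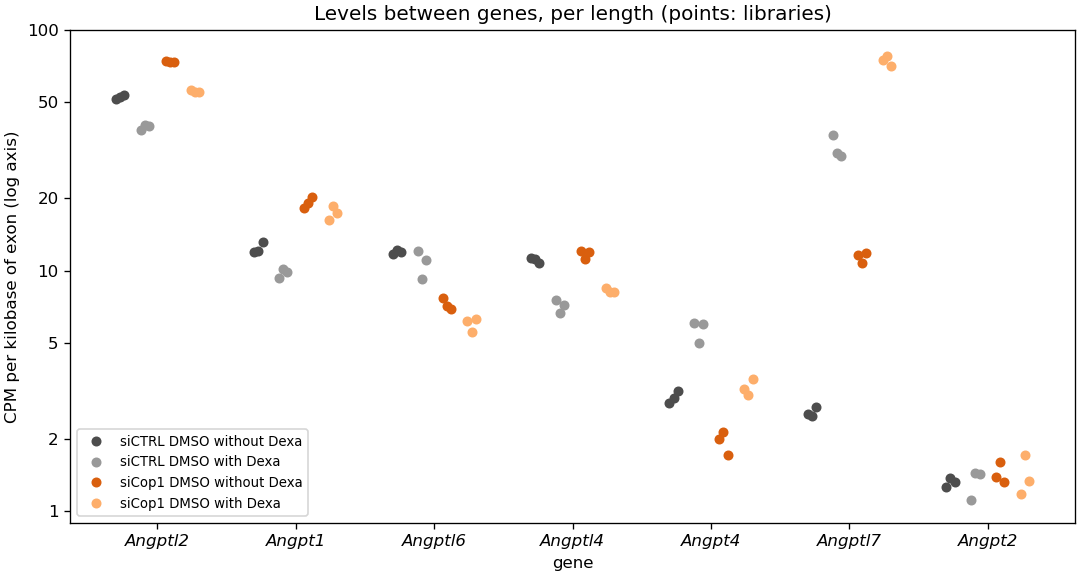
CPM per kilobase of exon (log axis) of the 6 genes and of Angpt4 in the 12 DMSO libraries; each point is a library, coloured by group. Angptl7 moves from 2.58 CPM per kilobase (group mean) in siCTRL without Dexa to 74.6 in siCop1 with Dexa, whereas Angpt2 stays between 1 and 2.

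Upstream sequences of Angptl7 and Angptl2 are shown because these genes were the most abundant of the 6 and changed with siCop1 in the same direction but moved in opposite directions under Dexa. RefSeq (GRCm38.p6) gave a start site for 3 of the 6 genes, Angptl2, Angptl6 and Angptl7, and each window is the 250 bases before that start. The windows are chr4:148500463-148500712 on the minus strand for Angptl7 and chr2:33215711-33215960 on the plus strand for Angptl2, both 5′ to 3′. Capitals mark a TATA-like element (TATTTAA) in Angptl7 and GC boxes (GGGCGG, on the minus strand here) in Angptl2.
Angptl7: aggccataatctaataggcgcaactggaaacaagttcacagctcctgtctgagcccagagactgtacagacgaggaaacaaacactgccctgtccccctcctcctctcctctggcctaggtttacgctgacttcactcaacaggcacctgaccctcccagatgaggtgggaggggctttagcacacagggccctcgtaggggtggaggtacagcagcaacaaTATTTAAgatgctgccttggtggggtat
Angptl2: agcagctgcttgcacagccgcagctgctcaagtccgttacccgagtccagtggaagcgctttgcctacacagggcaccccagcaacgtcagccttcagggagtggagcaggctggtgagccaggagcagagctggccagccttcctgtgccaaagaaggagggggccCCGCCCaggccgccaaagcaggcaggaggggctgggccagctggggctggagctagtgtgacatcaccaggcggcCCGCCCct
The TATA-like element begins 28 bases before the start of Angptl7 and is found in 4.18% of 32851 mouse windows of this length. The GC boxes begin 83 and 8 bases before the start of Angptl2, and 32.7% of windows hold 1 or more. These 2 motifs were chosen after the sequences were read, both strands were searched, and they do not overlap. The short glucocorticoid receptor site AGAACA (16.1% of windows), the full site, made of AGAACA, any 3 bases and TGTTCT (0.00913%), the AP-1 site TGANTCA (6.75%), the ETS core CCGGAAG (6.91%), the E-box CACGTG (6.02%) and the TATA box TATAAA (12.4%) were not in any of the 3 windows, which says only that these letters are not there. GC content was 54.4% for Angptl7, 54.8% for Angptl6 and 66.8% for Angptl2.

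siCop1 against siCTRL asks what loss of Cop1 does to these genes at a given compound and Dexa state. Angptl7, Angpt1 and Angptl2 rose and Angptl6 fell with siCop1 in all 4 settings. Angptl4 rose slightly in the 2 settings with Dexa, and Angpt2 did not pass the test in any. In numbers, 4 of the 6 genes passed (adjusted p below 0.05) in DMSO without Dexa, where 29.4% of all tested genes did, and 5 passed in DMSO with Dexa, where 31.1% did. In KL001, 4 passed without Dexa, against 32.7% of all genes, and 5 passed with Dexa, against 30.1%. The test was the quasi-likelihood test of edgeR, and p-values were adjusted by Benjamini-Hochberg over all 14772 genes. The median log2 change of all genes lay between -0.01 and 0.001 in these comparisons.

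**Figure D2:**
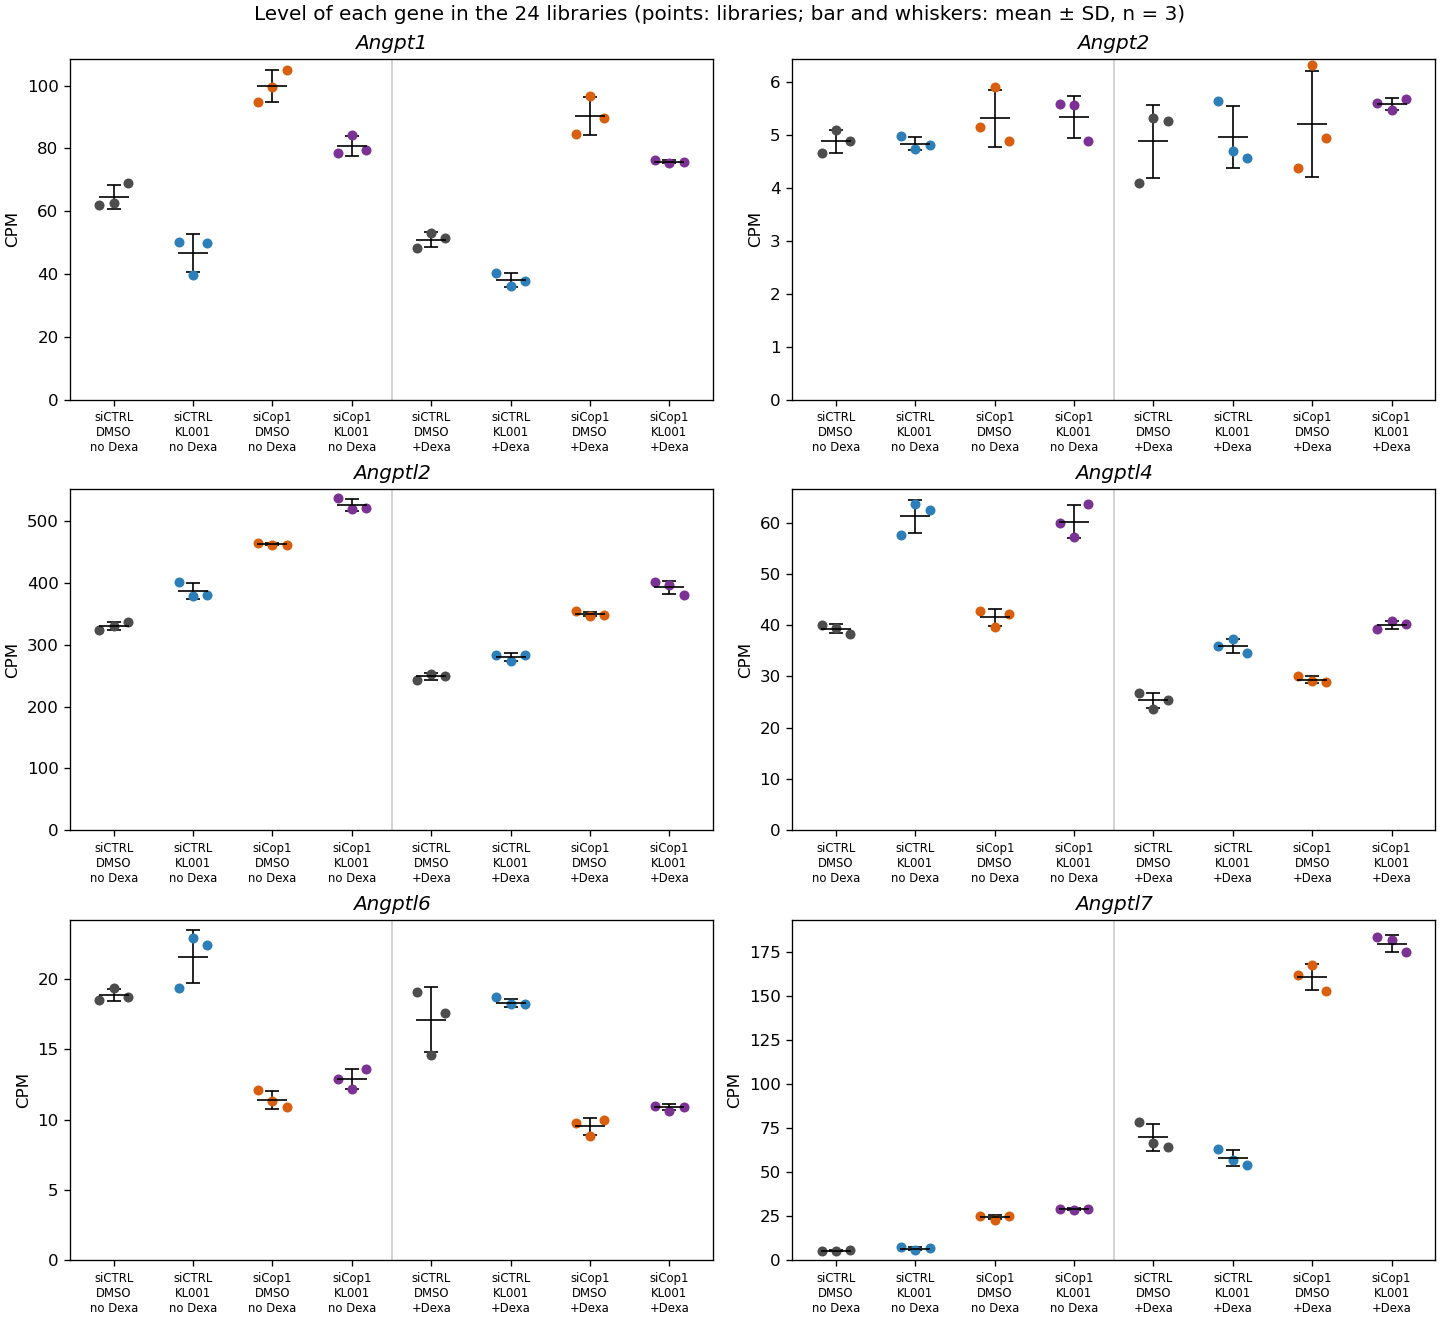
CPM of each gene in all 24 libraries (linear axes from 0). Points are libraries, and the bar and whiskers give the mean ± SD of the 3 libraries of a group; the 4 groups with Dexa are on the right. Angptl7 spans 5.35 to 184 CPM, Angpt1 and Angptl2 are higher and Angptl6 lower in siCop1, and Angpt2 stays between 4.09 and 6.32 CPM.

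Angptl7 (chr4:148495183-148500460, minus strand, GRCm38) had the widest range of the 6 genes, from 5.35 to 184 CPM, a ratio of 34.4. Without Dexa, its 3 libraries were at 5.48, 5.35 and 5.84 CPM in siCTRL DMSO and at 25.0, 23.2 and 25.3 CPM in siCop1 DMSO. With Dexa, they were at 78.8, 66.7 and 64.5 CPM in siCTRL DMSO and at 162, 168 and 153 CPM in siCop1 DMSO. All siCop1 libraries lay above all siCTRL libraries of the same compound and Dexa state. The increase with siCop1 was 4.42-fold without Dexa (log2 change 2.14, SE 0.102, adjusted p = 1.68e-14) and 2.30-fold with Dexa (log2 change 1.20, SE 0.0591, adjusted p = 3.32e-14). In KL001 the libraries were at 7.50, 5.63 and 6.77 CPM for siCTRL and at 29.4, 28.5 and 29.0 CPM for siCop1 without Dexa. With Dexa they were at 63.1, 56.8 and 54.1 CPM for siCTRL KL001 and at 184, 182 and 175 CPM for siCop1 KL001. The groups again did not overlap. There siCop1 raised Angptl7 4.36-fold without Dexa (log2 change 2.12, SE 0.0960, adjusted p = 7.32e-15) and 3.11-fold with Dexa (log2 change 1.64, SE 0.0603, adjusted p = 1.79e-16).

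Under Dexa, Angptl7 was higher in every setting, as the choice of the gene requires. The ratio was 12.6 in siCTRL DMSO (log2 change 3.66, SE 0.0895), 8.73 in siCTRL KL001 (log2 change 3.13, SE 0.0886), 6.56 in siCop1 DMSO (log2 change 2.71, SE 0.0665) and 6.23 in siCop1 KL001 (log2 change 2.64, SE 0.0649). The lowest ratios were those in siCop1, where the level without Dexa was already higher. The fold difference made by siCop1 was smaller with Dexa than without in DMSO, with a log2 difference of -0.94 (SE 0.122, 95% interval -1.20 to -0.69) and an adjusted p of 7.58e-05 (edgeR). This term uses the same libraries as the Dexa contrasts that chose the gene. Angptl7 was the only 1 of the 6 to pass it, against 0.67% of all genes. On the scale of CPM the order was the other way round: siCop1 added 19.0 CPM without Dexa and 90.9 CPM with Dexa in DMSO. In KL001 the log2 difference was -0.49 (SE 0.118, adjusted p = 0.0645) and 0 of the 6 genes passed, against 0.562% of all genes, with 2 at an unadjusted p below 0.05 and 1, Angptl7, called by DESeq2. That call was also made without a filter on low counts (adjusted p = 5.7e-06), in a fit on only the groups compared (0.0431), without the library siCTRL KL001 without Dexa replicate 1 (0.0414) and without siCTRL KL001 with Dexa replicate 3 (0.0246).

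**Figure D3:**
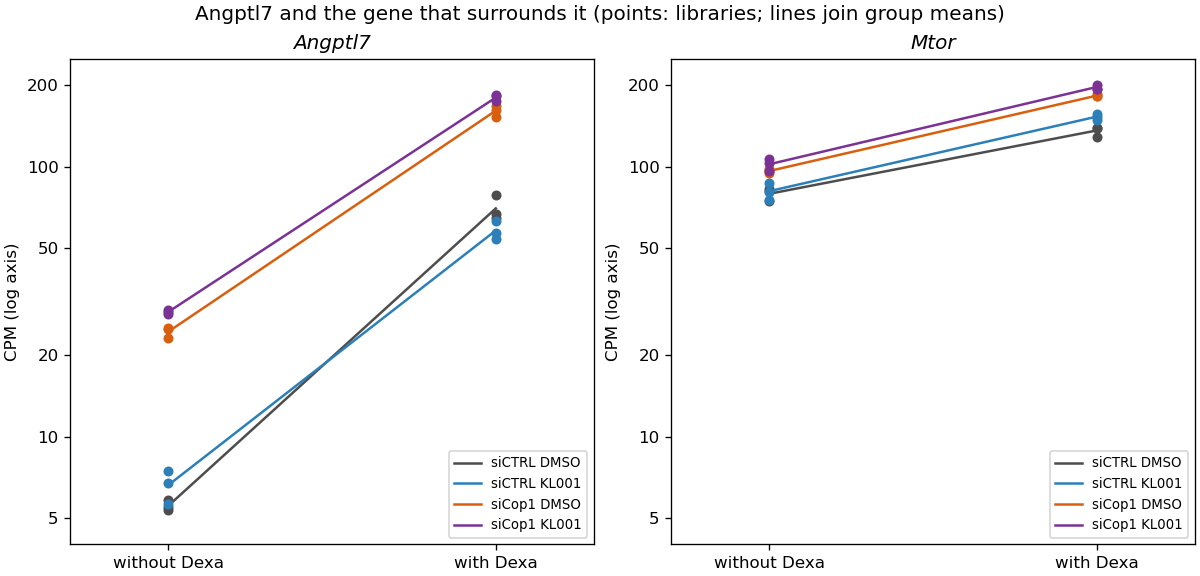
CPM (log axis) of Angptl7 and of Mtor, the gene on the opposite strand whose span holds Angptl7, without and with Dexa; points are libraries and lines join the means of 3. Angptl7 goes from 5.56 to 70.0 CPM in siCTRL DMSO and from 24.5 to 161 CPM in siCop1 DMSO, and Mtor goes from 79.3 to 136 and from 96.3 to 183 CPM.

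Angptl7 lies on the minus strand within Mtor, which is on the plus strand and encodes a growth-control kinase. The GENCODE models share 0 exon bases, and no source used here states the strand setting of the deposited counting. On the log2 scale, Mtor moved with siCop1 and Dexa in the same direction to a smaller degree. Its mean was 79.3 ± 4.32 CPM in siCTRL DMSO without Dexa, 136 ± 5.53 with Dexa, 96.3 ± 1.41 in siCop1 DMSO without Dexa and 183 ± 1.04 CPM with Dexa (SD, n = 3 each). The siCop1 change of Mtor was between 0.28 and 0.43 on the log2 scale over the 4 settings (adjusted p from 1.48e-05 to 3.09e-09), and its Dexa change between 0.78 and 0.95 (adjusted p from 1.25e-14 to 7.14e-17). Whether reads of either gene contributed to the other's count was not tested. With KL001 in siCTRL with Dexa, Mtor rose (log2 change 0.17, adjusted p = 0.0105) where Angptl7 fell.

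The other members were checked for overlaps in the same way. Angptl2 lies within Ralgps1, at 6.66 to 9.97 CPM, and Angpt2 within Mcph1, at 20.6 to 26.5 CPM, both with 0 shared exon bases. With siCop1, Ralgps1 rose by 0.35 on the log2 scale in DMSO with Dexa (adjusted p = 0.00946), by 0.27 in KL001 without Dexa (adjusted p = 0.0416) and by 0.32 in KL001 with Dexa (adjusted p = 0.0219), and its log2 change in DMSO without Dexa was 0.06 (adjusted p = 0.711). The part of Ralgps1 in the Angptl2 values was not tested. The siCop1 log2 changes of Mcph1 lay between -0.02 and 0.06, and none passed the test. Angptl6 shares 265 exon bases (16.75% of its exons) with A230050P20Rik, at 0.0822 to 0.428 CPM. Angpt1 shares 737 bases (14.16%) with the antisense gene Gm17473, at 0 to 0.347 CPM. How reads in the shared bases were counted was not tested.

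Angpt1 (chr15:42424723-42676977, minus strand), the Tie2 agonist, rose with siCop1. Without Dexa the libraries were at 62.0, 62.7 and 69.0 CPM in siCTRL DMSO and at 94.9, 99.4 and 105 CPM in siCop1 DMSO, an increase of 1.55-fold (log2 change 0.63, SE 0.0660, adjusted p = 7.70e-08). With Dexa they were at 48.3, 52.9 and 51.4 CPM in siCTRL DMSO and at 84.5, 96.8 and 89.8 CPM in siCop1 DMSO, 1.78-fold higher (log2 change 0.83, SE 0.0683, adjusted p = 1.40e-09). The highest siCTRL library was below the lowest siCop1 library in both. In KL001 the log2 change was 0.79 (SE 0.0691, adjusted p = 3.64e-09) without Dexa and 0.99 (SE 0.0720, adjusted p = 1.80e-10) with Dexa, where Angpt1 was at 40.3, 36.1 and 37.9 CPM in siCTRL and at 76.2, 75.3 and 75.7 CPM in siCop1.

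Angpt2 (chr8:18690263-18741562, minus strand), the context-dependent Tie2 antagonist, was low in all groups, with group means between 4.83 and 5.58 CPM and libraries from 4.09 to 6.32 CPM. Its siCop1 changes were 0.12, 0.10, 0.14 and 0.17 on the log2 scale in DMSO without and with Dexa and in KL001 without and with Dexa, with adjusted p from 0.341 to 0.585 (edgeR). The 95% intervals ran at most from -0.15 to 0.42 and held 0 in each setting, at 358 to 418 counts per group. The groups overlapped in every comparison. As Angpt1 moved and Angpt2 did not pass, the ratio of Angpt1 to Angpt2 counts differed between groups. It was 12.3 to 14.1 over the siCTRL DMSO libraries without Dexa, 16.8 to 21.5 in siCop1 DMSO without Dexa, and lowest, at 7.17 to 8.29, in siCTRL KL001 with Dexa.

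Angptl2 (chr2:33216069-33247717, plus strand), the integrin-binding member, rose with siCop1 by a similar amount in each setting. Without Dexa the libraries were at 324, 331 and 337 CPM in siCTRL DMSO and at 465, 462 and 462 CPM in siCop1 DMSO. Dexa libraries were at 243, 253 and 250 CPM in siCTRL DMSO and at 354, 347 and 348 CPM in siCop1 DMSO. The groups did not overlap in either. The log2 changes were 0.49 (SE 0.0287, adjusted p = 5.33e-14) and 0.49 (SE 0.0291, adjusted p = 6.17e-14), and in KL001 0.44 (adjusted p = 3.97e-13) without and 0.49 (adjusted p = 7.86e-14) with Dexa. The difference of the siCop1 change between Dexa states had a log2 value of 0.00 in DMSO (95% interval -0.08 to 0.09) and 0.04 in KL001 (interval -0.04 to 0.13).

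Angptl6 (chr9:20873808-20879727, minus strand), the member linked to energy balance, was the only 1 of the 6 to fall with siCop1. Without Dexa the libraries were at 18.5, 19.4 and 18.7 CPM in siCTRL DMSO and at 12.1, 11.3 and 10.9 CPM in siCop1 DMSO. In the presence of Dexa they were at 19.1, 14.6 and 17.6 CPM in siCTRL DMSO and at 9.75, 8.83 and 10 CPM in siCop1 DMSO. All siCop1 libraries lay below all siCTRL ones. It fell by 0.72 on the log2 scale (SE 0.0775, adjusted p = 1.58e-08) without Dexa and by 0.85 (SE 0.0817, adjusted p = 1.81e-09) with Dexa. In KL001 it fell by 0.74 (SE 0.0746, adjusted p = 3.93e-09) without and by 0.76 (SE 0.0805, adjusted p = 1.28e-08) with Dexa.

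Angptl4 (chr17:33773750-33781830, minus strand), the lipoprotein lipase inhibitor, changed little with siCop1. Its siCTRL DMSO libraries were at 40.0, 39.5 and 38.3 CPM and its siCop1 DMSO libraries at 42.7, 39.6 and 42.1 CPM without Dexa, which overlapped (log2 change 0.08, SE 0.0491, adjusted p = 0.251). With Dexa they were at 26.7, 23.7 and 25.4 CPM in siCTRL DMSO and at 30.1, 29.0 and 28.8 CPM in siCop1 DMSO, a rise of 0.21 (SE 0.0544, adjusted p = 0.00323). In KL001 the log2 change was -0.02 (SE 0.0454, adjusted p = 0.757) without Dexa and 0.16 (SE 0.0506, adjusted p = 0.0169) with Dexa. That last call was lost without siCTRL KL001 with Dexa replicate 3 (adjusted p = 0.107) and without siCop1 KL001 with Dexa replicate 2 (adjusted p = 0.0672).

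KL001 against DMSO asks what this compound does to the same genes, and stabilisation of cryptochromes was not measured here. Angptl4 and Angptl2 rose and Angpt1 fell with KL001 in all 4 settings. In siCTRL, 3 of the 6 genes passed without Dexa, against 6.73% of all tested genes, and 4 passed with Dexa, against 10.6%. In siCop1, 3 passed without Dexa, against 4.09%, and 3 with Dexa, against 5.46%. The median change of all genes was within 0.003 of 0 on the log2 scale. These comparisons used the same 24 libraries, in DMSO and in KL001, that served in the siCop1 comparisons.

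Angptl4 had the largest KL001 change of the 6 in each setting. Without Dexa its siCTRL KL001 libraries were at 57.5, 63.6 and 62.4 CPM, all above the siCTRL DMSO libraries given above, a rise of 1.56-fold (log2 change 0.64, SE 0.0474, adjusted p = 1.63e-10). With Dexa they were at 35.9, 37.2 and 34.6 CPM (log2 change 0.50, SE 0.0534, adjusted p = 1.15e-07). In siCop1 KL001 the libraries were at 59.9, 57.1 and 63.6 CPM without Dexa (log2 change 0.54, SE 0.0470, adjusted p = 4.58e-09) and at 39.2, 40.8 and 40.2 CPM with Dexa (log2 change 0.45, SE 0.0516, adjusted p = 4.69e-07). No KL001 library overlapped its DMSO group. Angptl4 was lower with Dexa in all settings, with log2 changes of -0.63 and -0.77 in siCTRL DMSO and siCTRL KL001 and of -0.50 and -0.59 in siCop1 DMSO and siCop1 KL001, with no overlap of libraries. Its level was 35.9 ± 1.31 CPM in siCTRL KL001 with Dexa and 39.3 ± 0.878 CPM in siCTRL DMSO without Dexa (SD, n = 3 each). All libraries of the former lay below those of the latter, and this difference was not tested. The difference of the KL001 change between Dexa states had a log2 value of -0.13 in siCTRL (95% interval -0.28 to 0.01) and -0.09 in siCop1 (interval -0.23 to 0.06).

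Angpt1 fell with KL001 by 0.47 on the log2 scale in siCTRL without Dexa (SE 0.0704, adjusted p = 0.000131), where the KL001 libraries were at 50.3, 39.6 and 50.0 CPM. It fell by 0.42 in siCTRL with Dexa (SE 0.0744, adjusted p = 0.000665). In siCop1 without Dexa the KL001 libraries were at 78.5, 84.2 and 79.5 CPM, and it fell by 0.31 (SE 0.0646, adjusted p = 0.00494). In none of these did KL001 and DMSO libraries overlap. In siCop1 with Dexa, where the libraries did not overlap either, it fell by 0.25 (SE 0.0660, adjusted p = 0.0221). That call was lost without siCop1 DMSO with Dexa replicate 2 (adjusted p = 0.133) or replicate 3 (0.0623), and without siCop1 KL001 with Dexa replicate 1 (0.0633), replicate 2 (0.0819) or replicate 3 (0.0775). Thus siCop1 and KL001 moved Angpt1 in opposite directions, and the siCop1 change did not differ detectably between DMSO and KL001, with a log2 difference of 0.16 (95% interval -0.04 to 0.36) without Dexa and 0.16 (interval -0.05 to 0.37) with Dexa.

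Angptl2 rose with KL001 by small but even amounts. In siCTRL the KL001 libraries were at 402, 379 and 380 CPM without Dexa (log2 change 0.23, SE 0.0288, adjusted p = 2.74e-06) and at 283, 273 and 284 CPM with Dexa (log2 change 0.17, SE 0.0293, adjusted p = 0.000204). In siCop1 they were at 537, 520 and 522 CPM (log2 change 0.18, adjusted p = 6.69e-05) and at 401, 396 and 381 CPM (log2 change 0.17, adjusted p = 0.000297). All lay above the matching DMSO libraries. Angptl6 was at 19.4, 22.9 and 22.4 CPM in siCTRL KL001 without Dexa, a log2 change of 0.19 (SE 0.0707) that did not pass (adjusted p = 0.108), and it passed without siCTRL KL001 without Dexa replicate 1 (log2 change 0.26, adjusted p = 0.0215). Its other KL001 changes were 0.10, 0.17 and 0.19, with adjusted p from 0.284 to 0.479. For Angpt2 the KL001 changes were -0.01, 0.03, 0.01 and 0.09, and its 95% intervals lay within -0.26 and 0.34.

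The KL001 change of Angptl7 differed in sign between settings. In siCTRL with Dexa it fell by 0.27 (SE 0.0633, adjusted p = 0.00576), and that call was lost in a fit on only the groups compared (adjusted p = 0.0532). In siCTRL without Dexa the log2 change was 0.26 (SE 0.130, adjusted p = 0.284), with overlapping libraries. In siCop1 the changes were 0.24 (SE 0.0761, adjusted p = 0.0869) without Dexa and 0.16 (SE 0.0556, adjusted p = 0.0944) with Dexa, and the libraries did not overlap in either. Without a filter on low counts these 2 had adjusted p-values of 0.00147 and 0.00544, and in a fit on only the groups compared 0.00339 and 0.000516, so both calls depend on the fit. With DESeq2 the value without Dexa was 0.0359.

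The siCop1 change of Angptl7 differed between KL001 and DMSO with Dexa, by 0.44 on the log2 scale (SE 0.0842, 95% interval 0.26 to 0.61, adjusted p = 0.0409, edgeR). It was the only 1 of the 6 to pass, against 0.0677% of all genes. The call was lost in a fit on only the groups compared (adjusted p = 0.201). It was also lost when 1 of 8 of the 12 libraries was left out: siCTRL DMSO with Dexa replicate 1 (0.0503), siCTRL KL001 with Dexa replicate 2 (0.111) or 3 (0.122), siCop1 DMSO with Dexa replicate 1 (0.116) or 3 (0.161), and siCop1 KL001 with Dexa replicate 1 (0.127), 2 (0.114) or 3 (0.068). Without Dexa the difference was -0.02 (95% interval -0.33 to 0.29), with 0 of the 6 genes and 0.0% of all genes passing in edgeR, 0 of the 6 at an unadjusted p below 0.05, and 0 by DESeq2. The KL001 change differed between Dexa states for 0 of the 6 genes in siCTRL (0.0% of all genes; 1 of the 6 at an unadjusted p below 0.05; 0 by DESeq2). In siCop1 it did for 0 of the 6 (0.0677% of all genes; 0 at an unadjusted p below 0.05; 0 by DESeq2). For Angptl7 in siCTRL the log2 difference was -0.53 (SE 0.145, adjusted p = 0.444), with a 95% interval of -0.83 to -0.23.

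**Figure D4:**
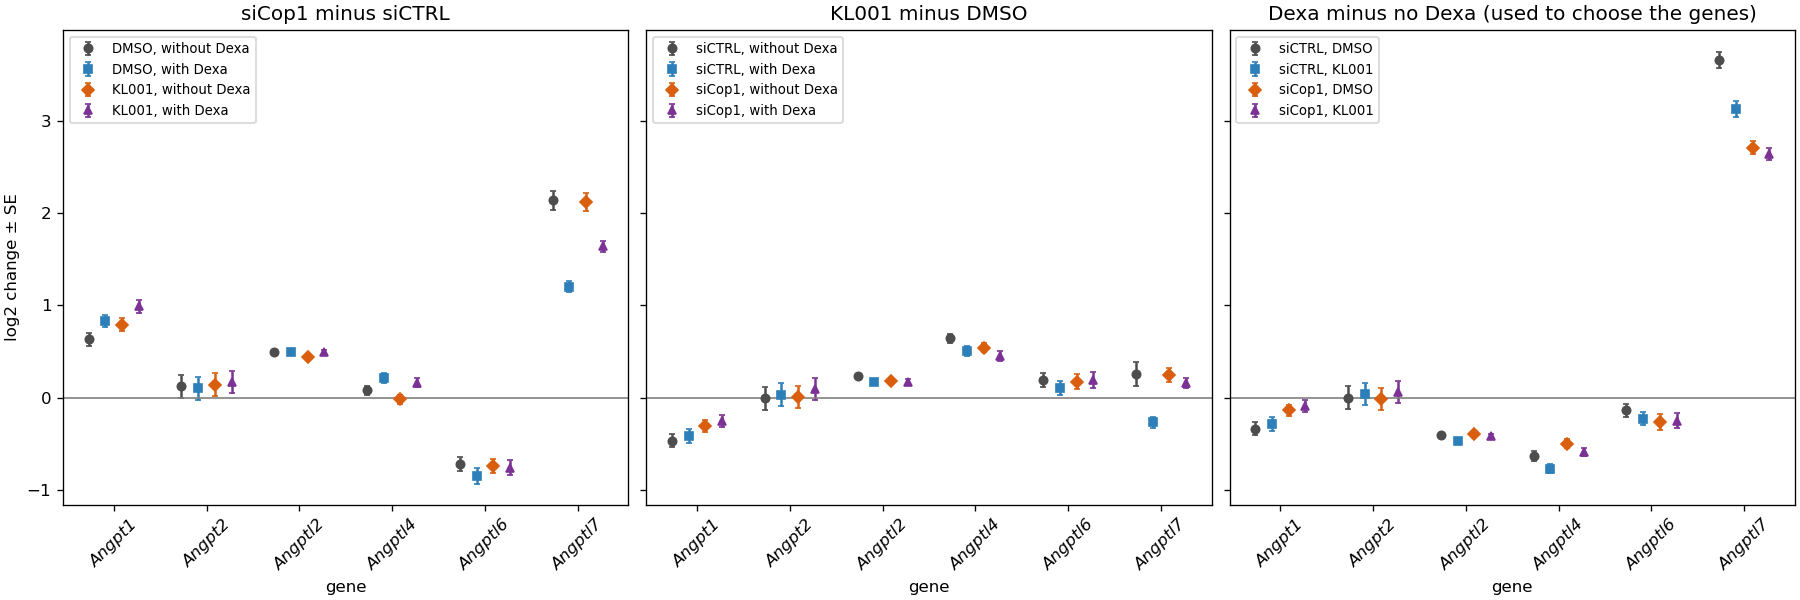
log2 change ± SE of each gene with siCop1 (left), KL001 (middle) and Dexa (right), 4 settings each as coloured symbols. With siCop1 Angptl7 lies between 1.20 and 2.14 and Angptl6 between -0.85 and -0.72, with KL001 Angptl4 lies between 0.45 and 0.64, and the Dexa values chose the genes and carry no test.

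Under Dexa the other 4 genes are described beside the Angptl7 and Angptl4 values that chose the set. Angptl2 was lower, with log2 changes of -0.41, -0.47, -0.40 and -0.42 in siCTRL DMSO, siCTRL KL001, siCop1 DMSO and siCop1 KL001, with no overlap of libraries. Angpt1 had log2 changes of -0.34, -0.29, -0.14 and -0.09, and its libraries overlapped in siCTRL KL001 and siCop1 DMSO. Those of Angptl6 were -0.14, -0.23, -0.27 and -0.25, with overlap in siCTRL DMSO. The log2 changes of Angpt2 lay between -0.02 and 0.06, with overlap in every setting. Of the 6, only Angptl7 was higher with Dexa by more than the spread of its libraries, and that rise was part of how the genes were chosen. Angpt4, which is not among the 6, was also higher with Dexa, as given below. Of all tested genes, 26.8% were called changed with Dexa in siCTRL DMSO, 26.8% in siCTRL KL001, 23.7% in siCop1 DMSO and 24.5% in siCop1 KL001, and nothing is read from the members against these.

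Angpt4, the family's other Tie2 ligand, passed the filter too and moved unlike Angpt1. It was at 6.60, 6.90 and 7.39 CPM in siCTRL DMSO without Dexa and at 14.1, 11.8 and 14.0 CPM with Dexa (log2 change 0.94, SE 0.0866, adjusted p = 5.06e-10). With siCop1 it fell by 0.61 in DMSO without Dexa (SE 0.102, adjusted p = 2.35e-05) and by 0.80 with Dexa (SE 0.0854, adjusted p = 1.31e-08). It was described after its values were seen.

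The receptors were compared from a list of 12 Tie receptor, integrin and partner genes, of which 10 were tested. Tek, the Tie2 receptor, was at 0.0930 to 1.40 CPM, Tie1 at 0 to 0.289 CPM and Pirb, a receptor of Angptl2, at 0 to 0.0465 CPM. By contrast the integrin subunits Itgb1 (1450 to 1680 CPM) and Itga5 (494 to 806 CPM) were abundant. Among the endothelial markers, whose sums are given above, Cldn5 was at or near 0. With siCop1, 2 of the 10 were higher and 3 lower in DMSO without Dexa (median log2 change 0.01), and 2 higher and 2 lower with Dexa (median -0.07). Svep1, an extracellular matrix protein that binds Tie1, fell with siCop1 by 0.46 in DMSO without Dexa (SE 0.0720, adjusted p = 4.92e-05), and Foxo1, a target of Tie2 signalling, rose by 0.29 (SE 0.0417, adjusted p = 2.84e-06). Tek fell by 1.08 (SE 0.288, adjusted p = 0.00463) from a level near 1 CPM. In the same comparison 12.8% of all genes were higher and 16.6% lower, and with Dexa 14.4% and 16.7%.

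Genes around lipoprotein lipase, the enzyme that Angptl4 inhibits, came from a list of 12 genes of which 9 were tested. With siCop1, 1 was higher and 4 were lower in DMSO without Dexa (median -0.12), where 12.8% of all genes were higher and 16.6% lower. With Dexa 1 was higher and 5 were lower (median -0.18), where 14.4% and 16.7% of all genes were. Lpl itself fell by 0.94 without Dexa (SE 0.168, adjusted p = 0.000302) and by 0.88 with Dexa (SE 0.201, adjusted p = 0.0026). Pcsk6, a proprotein convertase, fell by 0.86 (SE 0.0607, adjusted p = 3.22e-12), and Lipg, endothelial lipase, rose by 0.48 (SE 0.132, adjusted p = 0.00601), both in DMSO without Dexa. With KL001, where Angptl4 rose, 1 of the 9 was higher in siCTRL without Dexa (3.22% of all genes were) and it was Lipg (log2 change 0.58, SE 0.131, adjusted p = 0.00562). Lpl fell by 0.85 with Dexa in siCTRL DMSO (SE 0.168, adjusted p = 0.000731), so that both Lpl and Angptl4 were lower there.

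Of 15 PPAR pathway genes 13 were tested. With KL001, 2 were higher in siCTRL without Dexa and 2 with Dexa, where 3.22% and 4.98% of all genes were, and 3 and 2 were higher in siCop1, where 1.77% and 2.5% were. The median log2 changes of the list were 0.07, 0.02, 0.05 and 0.08. Cpt1a, which imports fatty acids into mitochondria, rose in all 4 settings, by 0.14, 0.15, 0.22 and 0.16 (adjusted p from 0.000271 to 0.0268). Pparg rose with KL001 without Dexa, by 0.33 in siCTRL (adjusted p = 0.00613) and 0.34 in siCop1 (adjusted p = 0.0106). The list of 6 adipocyte markers overlaps with this one. Its members Adipoq, Plin1, Cidec and Lep were at or near 0 in all libraries, while Fabp4, a fatty acid carrier, was at 15.8 to 81.0 CPM and Pparg at 7.38 to 14.2 CPM. Fabp4 rose with Dexa by 1.49 to 1.78 over the 4 settings and with siCop1 by 0.27 to 0.58, whereas Pparg fell with siCop1 in 3 settings, by 0.39 in DMSO without Dexa and by 0.38 and 0.22 in KL001 without and with Dexa. The summed level of the 6 was 26.6 to 31.0 CPM in siCTRL DMSO without Dexa and 88.0 to 90.8 CPM in siCop1 KL001 with Dexa, and its part in the values of the 6 ligand genes was not tested.

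Hypoxia genes share a known inducer with Angptl4. Of the 16 tested, 5 were lower and 0 higher with siCop1 in DMSO without Dexa (median -0.03), where 16.6% of all genes were lower and 12.8% higher. With Dexa 8 were lower and 1 was higher (median -0.11), where 16.7% of all genes were lower and 14.4% higher. Vegfa, the main endothelial growth factor, fell by 0.43 in DMSO without Dexa (SE 0.0301, adjusted p = 3.03e-12). Of the 16 VEGF and PDGF pathway genes, 4 were higher and 4 lower there. In the Dexa contrast of siCTRL DMSO, where Angptl4 was lower, 7 of the 16 hypoxia genes were higher and 2 lower (median 0.17). Of all genes, 12.7% were higher and 26.8% changed either way in that contrast. KL001 in siCTRL gave 2 higher and 0 lower without Dexa, where 3.22% of all genes were higher and 6.73% changed either way. With Dexa it gave 4 higher and 1 lower, where 4.98% of all genes were higher and 10.6% changed either way.

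The list of 12 glucocorticoid-responsive genes, which does not hold Angptl4 or Angptl7, was higher with Dexa in full in each setting, with 12 of 12 passing (12.7%, 12.7%, 12% and 12.1% of all genes were higher in the settings listed next) and medians of 2.55 in siCTRL DMSO, 2.46 in siCTRL KL001, 2.24 in siCop1 DMSO and 2.35 in siCop1 KL001. These genes are known responders, so this describes the treatment. With siCop1 in the presence of Dexa, 9 of the 12 were lower and 0 higher in DMSO (median -0.20; 16.7% of all genes were lower), and 7 were lower and 0 higher in KL001 (median -0.14; 16.3% of all genes were lower). Without Dexa, 3 were higher and 3 lower in DMSO (median -0.04; 12.8% of all genes were higher and 16.6% lower), and 3 were higher and 2 lower in KL001 (median -0.02; 14.5% of all genes were higher and 18.2% lower). The 3 that rose were Errfi1, by 0.86 in DMSO and 0.83 in KL001, Fkbp5, by 0.48 and 0.41, and Glul, by 0.42 and 0.58. With Dexa, Fkbp5 was at 714 to 727 CPM in siCTRL DMSO with Dexa and at 584 to 602 CPM in siCop1 DMSO with Dexa, while Angptl7 was more than 2 times higher in the latter. The siCop1 by Dexa difference passed for 4 of the 12 in DMSO, all negative, and for 0.379% of all genes it passed and was negative.

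The genes whose log2 CPM was most like that of a member over the 24 libraries were taken from 11603 genes with a mean of at least 1 CPM. For Angptl7 they were Lpin3 (Pearson's r 0.992), Plxna2 (0.991) and Layn (0.982), and for Angptl6 Cyb5r1 (0.984), Sars (0.983) and Vdac3 (0.970). For Angptl2 they included Cxadr (0.976) and Txnrd1 (0.973), and for Angpt1 they were Ptpn22, Dkk2 and Ptgs1 (0.964 to 0.965). Angptl4 reached 0.940 with Emp2, 0.932 with Pxn and 0.925 with Anxa7. Angpt2 had no close companion, its best being Pikfyve at 0.743. These values describe 24 libraries that share 8 groups, so the points share their group, siRNA, compound and Dexa state. Among the 6 genes themselves, the most negative r was -0.83, between Angpt1 and Angptl6, and the most positive 0.74, between Angptl2 and Angptl4.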

How the data were processed

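Stranded mRNA libraries were sequenced as single reads, per the labels' protocols, and bcl2fastq 1.8.4, STAR 2.4.5a, featureCounts of Subread 1.4.6-p3, Picard 1.126 and DESeq2 are named, with build GRCm38, per the submitters' processing notes. The strand setting of the counting is not given in the sources used here. The authors deposited raw counts per gene (47480 genes, 28837 with a count) and a normalized table (unit: signal) of counts divided by a size factor per library (0.862 to 1.12; 100% of values within 0.011), which was used only for that check. Columns were matched to libraries by their labels.

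Counts were analysed in R 4.3.3 with edgeR 4.0.16 (TMM, filterByExpr with minimum count 10 and minimum total 15, robust quasi-likelihood fit on all 24 libraries, 1 mean per group), two-sided with Benjamini-Hochberg adjustment over 14772 genes. The common biological coefficient of variation was 3.71%. CPM uses TMM-adjusted library sizes, and per-kilobase values use GENCODE vM21 exon lengths, which matched 6 of 6 genes. Replicates differed by more than sampling noise (chi-square per degree of freedom 1.57 to 8.54). The script was tested on simulated counts. Results were recomputed with each library left out, with a replicate block, on only the groups compared, with DESeq2 1.42.0, with RLE scaling and without the low-count filter. The 6 genes and all gene lists were chosen with earlier results of these data known. Genes named beyond the 6 were, per list and comparison, up to 4 with the largest log2 change among those passing, plus receptors, markers and host genes named for their role, and, for likeness, the 3 with the highest Pearson's r, of which 1 is not reported here. Angpt4, the ratio of Angpt1 to Angpt2 and the TATA-like and GC box motifs were chosen after values were seen.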

Additional observations from a re-analysis of the deposited data

Results flagged for a closer look

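For Angptl7 the siCop1 change differed between conditions by a test of the difference itself. The first such difference, between Dexa states, is also the difference of the Dexa contrasts that chose the gene, so its p is not independent of that choice. In DMSO the siCop1 change was smaller on the log2 scale with Dexa than without, by -0.94 (edgeR, adjusted p = 7.58e-05). All alternatives and all 12 left-out libraries kept that call, with adjusted p at most 0.00113. With Dexa the siCop1 change was larger in KL001 than in DMSO, by 0.44 (adjusted p = 0.0409), and that call was lost in 9 of the alternatives run. Mtor, whose span holds Angptl7, had a siCop1 by Dexa difference of 0.15 in DMSO (adjusted p = 0.53), and its part in the Angptl7 values was not tested.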

How the results depend on the processing

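All counts of genes passing with siCop1 or KL001 stayed within 1.5 times under every alternative run. With only the groups compared, the siCop1 by KL001 difference with Dexa went from 1 of 6 genes to 0, and over left-out libraries from 0 to 1. The siCop1 by Dexa difference in KL001 went from 0 to 1 (Angptl7) with no filter on low counts, only the groups compared and DESeq2, and over left-out libraries from 0 to 1. The KL001 by Dexa difference in siCTRL went from 0 to 1 with no filter on low counts. The cause was not tested.

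The replicate numbers are not taken as pairs, since not every same-numbered pair of libraries had correlated deviations above 0.1. Correlations over 84 pairs ran from -0.29 to 0.464 (median 0.0119, 19 above 0.1), and 13 of 24 libraries correlated best with their own number. Column names tie the numbers within an siRNA. There the median was 0.0557 in siCTRL, with 9 of 18 pairs above 0.1 and 8 of 12 libraries best with their own number. In siCop1 the median was 0.0309, with 3 of 18 pairs above 0.1 and 6 of 12 libraries best with their own number. The sources used here do not say what a shared number means, so pairs within an siRNA remain possible. With the replicate block, the siCop1 by Dexa difference in KL001 went from 0 to 1 gene (Angptl7, adjusted p = 0.0158), and the Angptl7 change with KL001 in siCop1 passed without Dexa (0.0272) and with Dexa (0.037). This block joined same-numbered libraries of both siRNAs, and a block within each siRNA was not run. It changed no other call.

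Uncalled values near 0 changed sign when libraries were left out. Over left-out libraries, Angpt2 with siCop1 in DMSO with Dexa ran from -0.06 to 0.20 on the log2 scale, and with KL001 from -0.05 to 0.02 in siCTRL without Dexa, -0.09 to 0.09 in siCTRL with Dexa, -0.05 to 0.09 in siCop1 without Dexa and -0.02 to 0.26 in siCop1 with Dexa. Angptl4 with siCop1 in KL001 without Dexa ran from -0.07 to 0.01, Angptl6 with KL001 in siCTRL with Dexa from -0.00 to 0.18, and the Angptl7 siCop1 by KL001 difference without Dexa from -0.12 to 0.08.

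Depth limits the precision for Angpt2: at 358 to 418 counts per group, the 95% intervals of its siCop1 changes ran at most from -0.15 to 0.42.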
